A study of Oryza sativa with 4 samples.

Results

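The loci described here are those that the chloroplast and mitochondrial genomes of rice encode. They were chosen by their chromosome alone, Pt for the chloroplast and Mt for the mitochondrion, which gave 103 chloroplast and 52 mitochondrial loci, 155 of 57995 in all. Leaves of Oryza sativa seedlings of the genotype Dongjin were sampled after irrigation at 7 days of age, under 16 h of light and 8 h of dark at 23 °C. The control seedlings received buffer (1 mM HCl) and the others 5 mM CysNO (S-nitrosocysteine, a donor of nitric oxide). Each group has 2 libraries of poly(A)-selected RNA, called control 1, control 2, CysNO 1 and CysNO 2 here. No group received cysteine without the nitroso group, so nitric oxide and the rest of the molecule cannot be told apart, and the labels give HCl for the controls only. Whether a group's libraries are from different plants is not stated, and each p-value below therefore reflects the spread between these libraries alone, some or all of which could be technical. Values are FPKM (fragments per unit of transcript length, scaled to the library's mapped fragments), so levels of different loci can be compared per length.

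Chloroplasts and mitochondria keep small genomes from their bacterial ancestors. The chloroplast genome encodes core subunits of the photosystems, the cytochrome b6f complex, the ATP synthase, the NDH complex of cyclic electron flow and the large subunit of Rubisco, together with part of the plastid RNA polymerase and ribosome. The mitochondrial genome encodes subunits of respiratory complexes I, III and IV, of the ATP synthase and of the mitochondrial ribosome, and proteins that mature cytochrome c. Most of the other subunits are made from nuclear genes and imported. In both plant organelles a poly(A) tail is a mark for degradation and most transcripts carry none, so a library selected on poly(A) holds a small and uneven part of organelle RNA. Such a library gives no measure of total organelle RNA. The protein sequences of the members are not shown, since no sequence table was used here.

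The summed FPKM of a library lay between 687469 and 732401, and read counts are unknown. Relative to control 1, the most frequent ratio in 594 loci of very low value gave depths of 1.07 in control 2, 0.825 in CysNO 1 and 1.08 in CysNO 2. An entry of 0 need not mean no transcript and may be an estimate that failed, because genes that every green cell uses, such as psbA of photosystem II, are at 0 in all 4 libraries. No row carries a symbol starting with rbcS, cab, lhc or psbO, so the leaf label was checked only on the chloroplast gene rbcL, which had 8.38 to 36.0 FPKM.

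The chloroplast loci that the libraries held were few. Of 103 loci, 76 were listed at 0 in all 4 libraries, 18 were above 0 in some library but under the floor used for testing (1 FPKM in at least 2 libraries), and 9 reached that floor. Of 52 mitochondrial loci, 20 were listed at 0 throughout, 15 were above 0 under the floor and 17 reached it. In all other loci 46.9% were listed at 0 in all 4 libraries, against 73.8% of the chloroplast and 38.5% of the mitochondrial loci. By library, between 7 and 9 chloroplast loci and between 14 and 21 mitochondrial loci had at least 1 FPKM.

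Within the chloroplast, the loci that reached the floor came from 5 classes. Rubisco's large subunit gene rbcL did so, as did 3 of 14 photosystem II genes (psbB, psbH and psbM), 3 of 25 ribosomal protein genes (rps16, rps15a and rpl32), 1 of 6 ATP synthase genes (atpB) and 1 of 17 open reading frames (orf100, of unknown role, in a class that also held the accD remnant). All 5 genes of the cytochrome b6f class, petA, petB, petD, petL and the locus the files call petE, were listed at 0 in every library. The gene table used for names calls that last locus petG. Of the photosystem I class, psaA, psaB, psaC, psaI, psaJ and the assembly gene ycf3 were listed at 0, and the assembly gene ycf4 was the exception, at 0.131 to 0.967 FPKM. Of photosystem II, the reaction centre genes psbA and psbD and the antenna gene psbC were listed at 0, as were psbE, psbF, psbI, psbJ, psbK, psbL, psbN and psbT.

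Below the floor, the NDH complex had 5 of its 12 loci above 0. Those were ndhA (0.406 to 0.731 FPKM), ndhH (0.186 to 0.910), ndhI (0.242 to 0.403), ndhF (0.0664 to 0.222) and ndhK (0 to 0.213), while ndhB1, ndhB2, ndhC, ndhD, ndhE, ndhG and ndhJ were listed at 0. Of the subunits of the plastid-encoded RNA polymerase, rpoB had 0.189 to 0.546 FPKM and rpoC2 0.114 to 0.243, and rpoA and rpoC1 were listed at 0. The splicing factor gene matK stood just under the floor, at 0.816 and 0.835 FPKM in the control libraries and 0.588 and 0.617 in CysNO. Of the ATP synthase genes, atpA had 0.108 to 0.244 FPKM and atpI 0 to 0.503, and atpE, atpF and atpH were listed at 0. The gene ccsA, needed for cytochrome c synthesis, had 0.0665 to 0.192 FPKM. The ribosomal protein gene rps4 was listed at 0 in both controls and had 0.0158 and 0.0165 FPKM in CysNO. The rest under the floor were 5 open reading frames (orf23, orf28, orf85, orf91 and orf133), at 0 to 1.26 FPKM. The 21 ribosomal protein loci listed at 0 covered both ribosomal subunits, among them rpl14, rpl16, rpl20, rps2 and rps3. Also listed at 0 were the protease gene clpP, the envelope protein gene cemA, the initiation factor gene infA, the accD remnant, ycf6 (petN in the gene table), all 3 rows called ycf9 (1 of them psbZ in the table), ycf68, ycf72 and 10 open reading frames. Just inside the floor was psbB, whose second highest library had 1.14 FPKM, and just outside it was orf91, with 0.853.

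The mitochondrial loci were held more evenly over the complexes. In complex I, which takes electrons from NADH, nad9, nad4L and nad2 reached the floor, nad4, nad6 and nad7 were above 0 under it and nad3 was listed at 0. The complex III gene cob reached it. Of complex IV, the terminal oxidase, cox2 and cox3 reached the floor, while cox1 was listed at 0 in all 4 libraries. Of the ATP synthase genes, atp1 reached it and atp9 was listed at 0. The locus the files call [CMS-BO] ends where the gene table has atp6, and it reached the floor too. The locus named orf25 in the gene table, known in plants as a subunit of the same enzyme (atp4), also did, and orfB, known as atp8, was listed at 0. Of 11 ribosomal protein loci, rps1, rps7, rps13, rps19 and rpl2 reached the floor, rps4 and rpl5 were above 0 under it, and rps2, rps3, rps12 and the rpl16 pseudogene were listed at 0. All 4 cytochrome c maturation genes stayed under the floor, with ccmB at 0.107 to 2.01 FPKM, ccmFN at 0.211 to 1.64, ccmFC at 0.131 to 0.574 and ccmC at 0.0828 in control 1 and 0 elsewhere. Of the 22 mitochondrial loci without a symbol in the files, 13 were listed at 0 and 4 reached the floor, orf25, orf152a, orf165 and orf173. The other 5, at 0 to 1.90 FPKM, were orf153, orf160, orf224, orf288 and orfX, and the maturase gene mat-r was at 0 in both controls and at 0.0526 and 0.0325 in CysNO. The orf names come from the gene table, where all 22 have an entry of the same start and end.

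**Figure D1:**
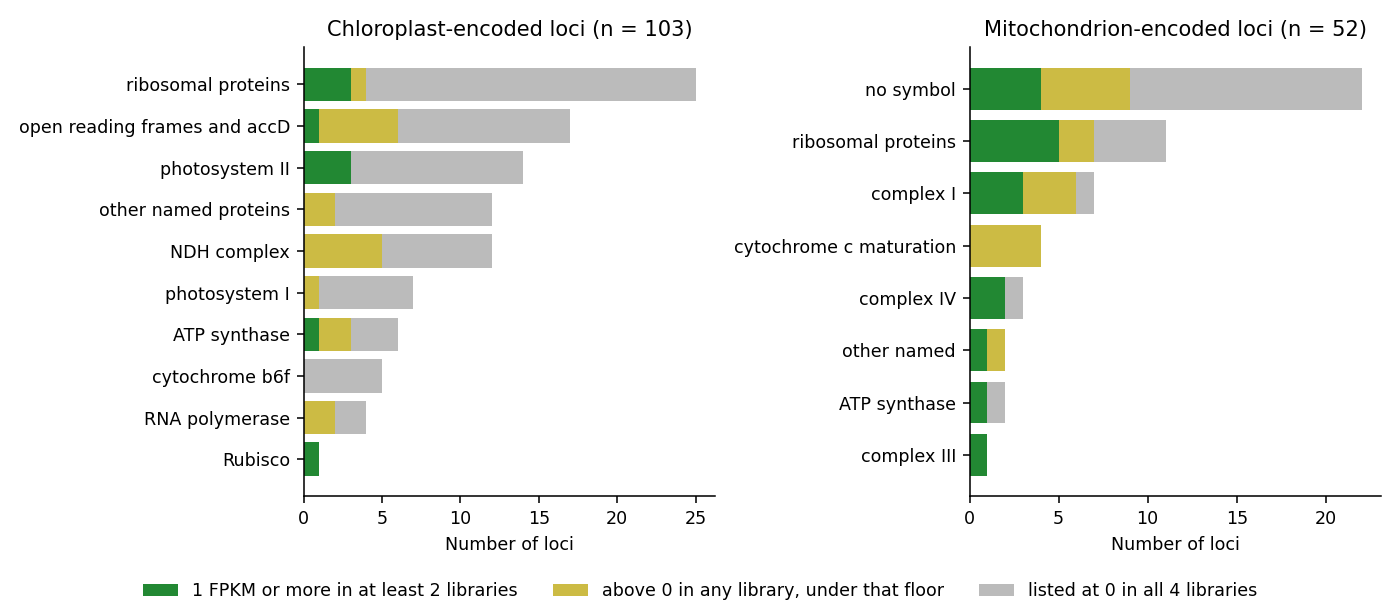
Number of loci (horizontal axis) in each class (vertical axis) of the chloroplast (left) and mitochondrial (right) genome, split into those with at least 1 FPKM in at least 2 libraries (green), those above 0 under that floor (yellow) and those listed at 0 in all 4 libraries (grey). The grey part holds 76 of 103 chloroplast and 20 of 52 mitochondrial loci, and all 5 loci of the cytochrome b6f class.

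In the chloroplast, the share of loci listed at 0 differed with their span. Of the 29 chloroplast loci shorter than 300 bp, 28 were listed at 0 throughout (96.6%), and of the 23 loci of 300 to under 600 bp, 21 were (91.3%). At 600 to under 1200 bp the share was 51.9% of 27 loci, and at 1200 to under 2400 bp 59.1% of 22. The loci of all other chromosomes followed a like order, with 87.1% at 0 under 300 bp, 80.6% at 300 to under 600 bp, 60.9% at 600 to under 1200 bp and 46.3% at 1200 to under 2400 bp. Mitochondrial loci had lower shares at 0 in the bins that hold most of them, 54.2% of 24 loci at 300 to under 600 bp and 23.1% of 13 at 600 to under 1200 bp. Among mitochondrial loci, the share that reached the floor followed no steady order with span. Both loci under 300 bp (nad4L and rps19) reached it, as did 33.3% at 300 to under 600 bp and 23.1% at 600 to under 1200 bp. At 1200 to under 2400 bp the share was 37.5% of 8 loci, and it was 20% of the 5 longest. The shares at 0 among chloroplast loci under 600 bp were above those among such loci of other chromosomes in both bins. Of the long chloroplast loci, psaA (2253 bp) and psaB (2205 bp) were listed at 0 too. These shares are descriptions of the same 4 libraries and were not tested.

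**Figure D2:**
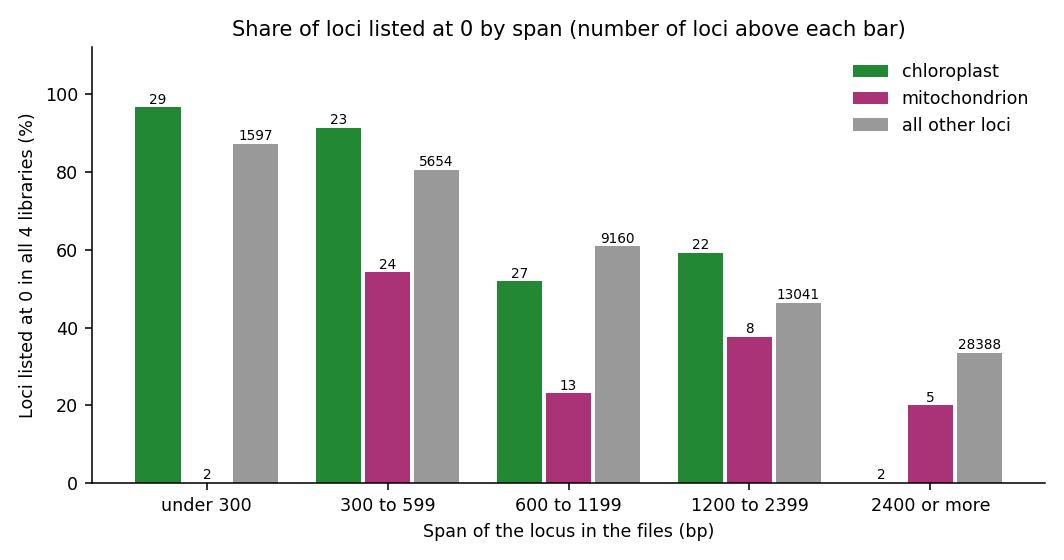
Percent of loci listed at 0 in all 4 libraries (vertical axis) by the span of the locus in base pairs (horizontal axis), for chloroplast (green), mitochondrial (purple) and all other loci (grey), with the number of loci above each bar. The chloroplast bars stand at 96.6% and 91.3% in the shortest bins, and 2 bars at 0 rest on 2 loci each.

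Chloroplast loci also differed by the extent of the locus model. The positions of the organelle loci were matched to those of the gene table's organelle genes, and for 123 of 155 loci the start and end are the same in both. No counterpart was found there for rps12b and nad2. Of the 78 chloroplast loci with the same span, 10 were above 0 in any library (12.8%) and 4 reached the floor, namely rps16, orf100, atpB and psbB. Of the 23 whose span in the files is longer than the named gene in the table, 17 were above 0 (73.9%) and 5 reached the floor. Those 5 are rbcL (1833 bp in the files), psbM (784 bp), psbH (1196 bp), rps15a (1375 bp) and rpl32 (668 bp), and the table's genes have spans of 1434, 105, 222, 273 and 192 bp. In the mitochondrion, by contrast, 27 of the 45 loci with the same span were above 0 (60%). The chloroplast loci with longer models had a median span of 856 bp and those with the same span 406.5 bp. The extent of the model and the span of the locus are therefore not separated here, and neither was tested. The longer models take in flanking and neighbouring sequence. The span of psbH covers most of psbN on the other strand, and that of rps15a runs into ndhF on the other strand, so whether fragments there belong to the named gene cannot be told without knowing if strand was used in counting.

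Copies in the inverted repeat, a stretch that the chloroplast genome carries in mirror-image pairs, were compared as well. In 7 mirrored pairs of equal span, among them ndhB1 and ndhB2, rpl2a and rpl2b, rpl23a and rpl23b, and rps7a and rps7b, both copies were listed at 0 in all 4 libraries. In 6 pairs the first copy has the longer model, and there the shorter copy was listed at 0 in every library while the longer one was above 0 in 4 pairs (rps15a, orf23, orf28 and orf85). In the pairs of orf249 and ycf9 both copies were at 0. Whether the extent of the model sets these values was not tested. The ribosomal protein gene rps15a had 4.89 and 7.23 FPKM in the control libraries and 1.69 and 12.2 in CysNO, and its 273 bp mirror copy rps15b was at 0 throughout. Reads from such copies are identical over the shared stretch, so each level is uncertain between them, and no source used here says how the authors' counting treated them.

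Among chloroplast loci at the floor, rbcL was the most abundant by mean. It encodes the large subunit of Rubisco, which fixes carbon dioxide, and had 20.1 and 16.1 FPKM in the control libraries and 8.38 and 36.0 in CysNO. The CysNO libraries stood on either side of both controls. Next came orf100 (303 bp, chloroplast bases 8349 to 8651), with 30.6 and 7.32 FPKM in the control libraries and 5.42 and 23.1 in CysNO, so each group held a high and a low library. Of the photosystem II genes, psbM, for a small subunit, had 3.88 and 5.60 FPKM in the control libraries and 2.80 and 18.2 in CysNO. The subunit gene psbH had 4.96 and 6.58 in the controls and 2.05 and 9.99 in CysNO. In both genes CysNO 1 was below and CysNO 2 above the controls. The antenna protein gene psbB had 1.41 and 1.14 FPKM in the control libraries and 0.691 and 1.03 in CysNO, where the groups did not overlap. The ATP synthase gene atpB had 0.848 and 1.35 in the controls and 0.197 and 1.82 in CysNO. The ribosomal protein gene rpl32 varied least, at 5.96 and 5.98 in the controls and 4.43 and 6.30 in CysNO.

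In the mitochondrion the highest locus was orf165 (LOC_Osm1g00540, 498 bp, mitochondrial bases 337077 to 337574 on the minus strand). It had 14.5 and 18.8 FPKM in the control libraries and 10.04 and 23.4 in CysNO, and made up 17.1% to 31.4% of the mitochondrial FPKM of a library. It overlaps orf284, which lies on the plus strand ahead of cox1, and both orf284 and cox1 were listed at 0. The ribosomal protein gene rps13 had 8.10 and 12.3 FPKM in the control libraries and 1.89 and 5.996 in CysNO. The ribosomal protein gene rps1 had 8.22 and 10.2 in the controls and 1.53 and 6.23 in CysNO. For nad9, of complex I, the values were 5.39 and 10.3 in the controls and 1.57 and 4.88 in CysNO. In these 3 genes both CysNO libraries were below both controls, and CysNO 1 was the lowest. The oxidase gene cox3 had 5.09 and 9.82 FPKM in the control libraries and 4.22 and 5.22 in CysNO. The ATP synthase gene atp1 had 4.19 and 7.45 in the controls and 2.85 and 5.29 in CysNO. For both, CysNO 2 lay between the controls.

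The remaining mitochondrial loci at the floor stood lower. The cytochrome b gene cob had 2.11 and 2.45 FPKM in the control libraries and 1.39 and 1.86 in CysNO. The oxidase gene cox2 had 2.36 and 3.95 in the controls and 1.92 and 1.58 in CysNO, and nad2 had 1.18 and 2.09 in the controls and 0.756 and 0.696 in CysNO. In all 3 the CysNO libraries were below the controls, without overlap, but nad2 reached the floor through the controls alone, so the floor itself favoured that separation. The row called nad2 is a piece of a gene that plant mitochondria join from separate transcripts. No entry of the gene table shares the row's start or end or lies inside the row, so the row's name rests on the files alone. The complex I gene nad4L (273 bp) had 3.39 and 1.93 FPKM in the control libraries and 2.42 and 0.577 in CysNO. The locus [CMS-BO], atp6 in the table, was the most even, at 1.16 and 1.502 in the controls and 1.34 and 1.23 in CysNO. For orf25 the values were 2.73 and 4.87 in the controls and 2.36 and 3.19 in CysNO.

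The ribosomal protein gene rps7 had 0.150 and 0.855 FPKM in the control libraries and 1.46 and 1.40 in CysNO. It reached the floor through the CysNO libraries alone, so the floor favoured the absence of overlap there too. The groups overlapped for rps19 and rpl2, also of the mitochondrial ribosome. For rps19 the values were 1.76 and 5.86 in the controls against 3.15 and 5.48 in CysNO, and for rpl2 they were 0.682 and 2.72 against 0.844 and 1.17. The open reading frames orf152a and orf173 overlapped as well, and orf152a had 1.10 and 3.75 FPKM in the control libraries against 2.49 and 1.99 in CysNO. orf173 was listed at 0 in control 1 and had 1.24 in control 2 against 1.90 and 0.875 in CysNO.

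**Figure D3:**
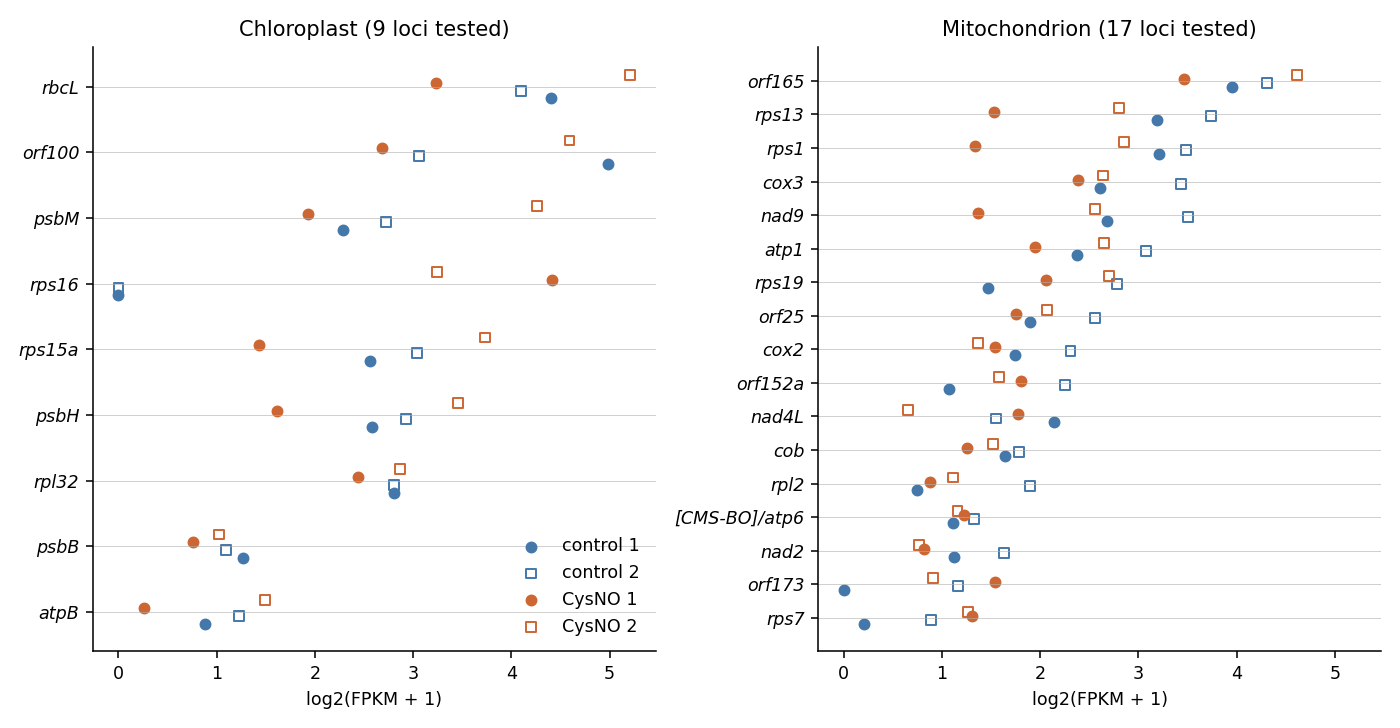
Level of each chloroplast (left, 9 loci) and mitochondrial (right, 17 loci) locus that reached the floor, as log2(FPKM + 1) on the horizontal axis, ordered by mean level. Filled and open blue symbols are control 1 and 2, filled and open orange symbols CysNO 1 and 2. In the chloroplast CysNO 1 is lowest for 8 of 9 loci, and in the mitochondrion control 2 is highest for 13 of 17.

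The members of an organelle moved together between the libraries of 1 group. In the chloroplast CysNO 1 was the lowest library at 8 of 9 tested loci and CysNO 2 the highest at 6. CysNO 2 had 4.30 times the rbcL level of CysNO 1, 4.86 times that of psbH, 6.49 times that of psbM, 7.25 times that of rps15a and 9.24 times that of atpB. The median difference of CysNO 2 from CysNO 1 was 1.85 on the log2(FPKM + 1) scale over the 9 loci, against -0.12 over the nuclear loci tested. In the mitochondrion control 2 was the highest library at 13 of 17 loci, and above control 1 at 16. The median difference of control 2 from control 1 was 0.66, against -0.12 over the nuclear loci tested. CysNO 1 also had the lowest relative depth of the 4 libraries (0.825), and the part of depth in these differences was not tested. In such bulk samples, fewer cells of a type and less RNA per cell cannot be told apart.

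The question put to the members was whether CysNO changed their level. In limma's moderated test on log2(FPKM + 1) over all 21123 tested loci, 1 of the 9 tested chloroplast loci was higher in CysNO and 0 were lower, and 0 of the 17 mitochondrial loci passed in either direction. Over all tested loci 4.23% passed (3.27% higher and 0.956% lower), so 1 of 26 members is near the background. At an unadjusted p under 0.05 in the same test the counts were 1 chloroplast and 3 mitochondrial loci, where the share over all tested loci was 18.1%. The groups did not overlap at 2 of 9 chloroplast loci (22.2%) and at 7 of 17 mitochondrial loci (41.2%), against 46.4% of all tested loci. Of these members, rps16 and rps7 reached the floor through CysNO alone and nad2 through control alone, so the counts are a description and support no difference. The median log2 fold change was -0.18 over the chloroplast members, -0.32 over the mitochondrial members and -0.01 over all tested loci. The chloroplast median was 0.71 without CysNO 1 and -0.80 without CysNO 2, and leaving out control 1 or control 2 gave -0.15 and -0.042. The mitochondrial median was -0.65 without control 1, -0.079 without control 2, -0.19 without CysNO 1 and -0.48 without CysNO 2.

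The chloroplast locus that passed was rps16 (LOC_Osp1g00130, chloroplast bases 4487 to 5553 on the minus strand), for a protein of the small ribosomal subunit. It was listed at 0 in both controls and had 20.3 FPKM in CysNO 1 and 8.50 in CysNO 2, which is the reverse of the order of these libraries at the other 8 tested chloroplast loci (limma, adjusted p = 0.00618). It made up 40.8% of the chloroplast FPKM of CysNO 1 and 6.90% of that of CysNO 2. No fold is given against a group listed at 0, and the size that limma fits depends on the pseudocount. The locus reached the floor through the CysNO libraries alone, so the difference decided that it was tested. The entries of 0 in the controls need not mean no transcript, since such an entry may be an estimate that failed. With both controls at 0, the locus's own spread comes from the CysNO libraries alone. In the test, limma combines that spread with a prior from all tested loci, which has 5.36 degrees of freedom against 2 residual ones. The call was lost without CysNO 1 (adjusted p = 0.2301), without CysNO 2 (adjusted p = 0.1959), with the replicate block (adjusted p = 0.05681) and with no filter on low values (adjusted p = 0.1065) in limma. Of all tested loci, 9 were at 0 in both controls and at 5 FPKM or more in both CysNO libraries, 0.0426% of 21123, and 1 had the opposite pattern. Of its neighbours, matK was no higher in CysNO, and psbK, listed at 0 in all 4 libraries, has no usable value.

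No other chloroplast member passed, and the intervals are wide. The log2 fold change of rbcL was -0.03 with a 95% interval from -1.38 to 1.33 (SE 0.58; limma, adjusted p = 0.987). That of psbM was 0.59 with an interval from -0.998 to 2.18 (limma, adjusted p = 0.759), and that of orf100 was -0.38, from -2.14 to 1.38 (limma, adjusted p = 0.871). The narrowest interval was that of rpl32, from -0.85 to 0.55 around -0.15 (limma, adjusted p = 0.875). For psbB the log2 fold change was -0.29, for psbH -0.22, for rps15a -0.22 and for atpB -0.18 (limma, adjusted p from 0.741 to 0.924). The sign of each uncalled chloroplast member except psbB, which stayed negative, changed when some single library was left out. Without CysNO 1 the log2 fold change of rbcL was 0.96, that of rps15a 0.93, that of psbH 0.71 and that of atpB 0.44, and without CysNO 2 that of psbM was -0.58.

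In the mitochondrion 13 of the 17 log2 fold changes were below 0 and 4 above, and over all tested loci 10796 were below and 10327 above. The most negative were rps13 at -1.29 ± 0.45 (SE; limma, adjusted p = 0.189), rps1 at -1.25 ± 0.49 (SE; limma, adjusted p = 0.233) and nad9 at -1.13 ± 0.47 (SE; limma, adjusted p = 0.266). Their 95% intervals, not adjusted for the number of loci, were -2.36 to -0.23, -2.39 to -0.11 and -2.23 to -0.03. In group means, rps13 had 10.2 ± 2.999 FPKM (SD, n = 2) in control and 3.94 ± 2.90 (SD, n = 2) in CysNO. rps1 had 9.21 ± 1.40 FPKM and 3.88 ± 3.32 (SD, n = 2), and nad9 had 7.86 ± 3.50 and 3.23 ± 2.34 (SD, n = 2). Then came nad4L (-0.63), nad2 (-0.59), cox2 (-0.57), cox3 (-0.51), atp1 (-0.43), cob (-0.32), rpl2 (-0.32) and orf25 (-0.32), with limma adjusted p from 0.426 to 0.801. The locus [CMS-BO] had -0.03 with a 95% interval from -0.75 to 0.70, and orf165 had -0.09, from -1.03 to 0.84 (limma, adjusted p of 0.983 and 0.948). The positive values were those of rps7 (0.74, from -0.10 to 1.57), orf173 (0.64, with control 1 listed at 0), rps19 (0.25) and orf152a (0.03), with limma adjusted p from 0.343 to 0.984.

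**Figure D4:**
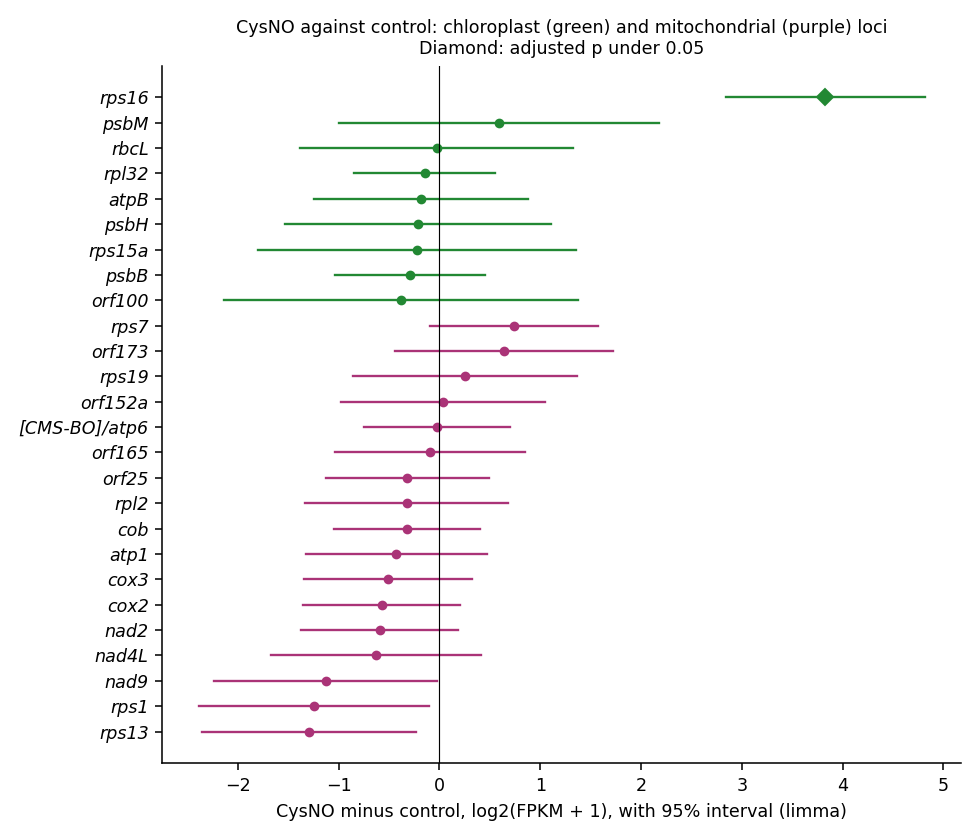
Difference of CysNO from control for each tested member on the log2(FPKM + 1) scale (horizontal axis), with limma's 95% interval, for chloroplast (green) and mitochondrial (purple) loci. The diamond marks rps16, which is listed at 0 in both controls and is the 1 member past an adjusted p of 0.05, and the other chloroplast intervals all span 0. The mitochondrial intervals of rps13, rps1 and nad9, which are not adjusted for the number of loci, lie below 0.

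Summed over all members, each organelle made up a very small part of a library. Chloroplast loci summed to 78.9 and 59.3 FPKM in the control libraries and to 49.7 and 123 in CysNO, which is 0.0113% and 0.00855% of the library's FPKM in the control libraries and 0.00678% and 0.0179% in CysNO. The CysNO libraries were the lowest and the highest of the 4. In group means the share was 0.00995% ± 0.00198 (SD, n = 2) in control and 0.0123% ± 0.00786 (SD, n = 2) in CysNO (two-sided exact permutation test, p = 1). The difference of CysNO from control was 0.00240 percentage points, 0.00795 without CysNO 1 and -0.00316 without CysNO 2. Mitochondrial loci summed to 66.2 and 110 FPKM in the control libraries and to 45.4 and 74.7 in CysNO, or 0.00951% and 0.0159% against 0.00620% and 0.0109%. Here the groups overlapped and control 2 was the highest. The group means were 0.0127% ± 0.00448 and 0.00853% ± 0.00330 (SD, n = 2; two-sided exact permutation test, p = 0.667). With 2 against 2 libraries the smallest p this test can give is 0.3333.

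**Figure D5:**
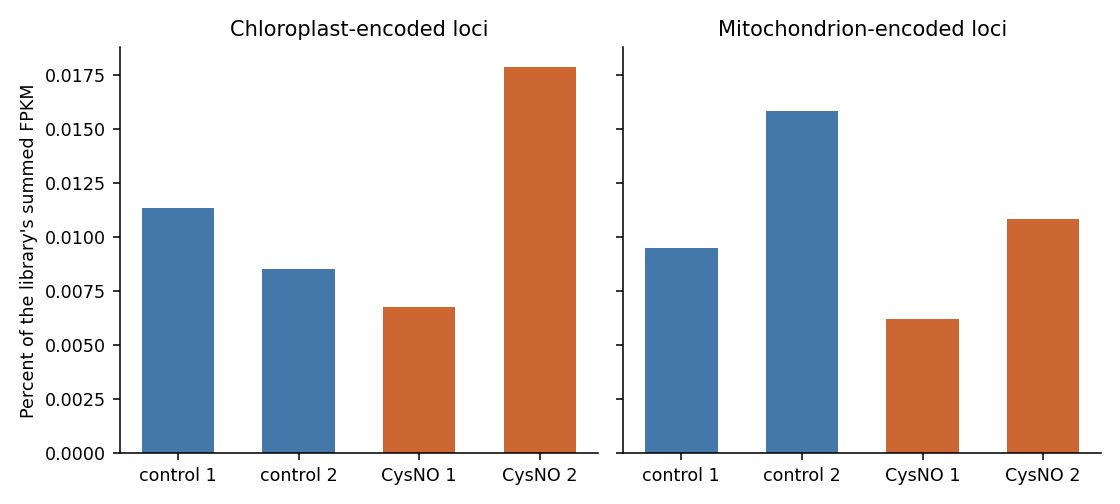
Summed FPKM of the chloroplast-encoded (left) and mitochondrion-encoded (right) loci as a percent of the FPKM of the whole library (vertical axis), 1 bar per library, controls in blue and CysNO in orange. The chloroplast share runs from 0.00678% in CysNO 1 to 0.0179% in CysNO 2, and the mitochondrial share is highest in control 2 at 0.0159%.

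The nuclear side of the same complexes was read from 11 nuclear loci, 6 for ATP synthase and cytochrome oxidase proteins, with symbols starting with atp or cox, and 5 for sigma factors, with symbols starting with Sig (Sig1, Sig2A, Sig2B, Sig5 and Sig6). Sigma factors guide the plastid-encoded RNA polymerase, which the rpo genes encode, to its promoters. All 11 reached the floor in each library, and 0 passed in limma in either direction, with 1 at an unadjusted p under 0.05. Over all tested loci 4.23% passed and 18.1% had an unadjusted p under 0.05 in the same test. The most abundant was atpB2, at 125 and 120 FPKM in the control libraries and 209 and 132 in CysNO (log2 fold change 0.43; limma, adjusted p = 0.571). For cox6b the log2 fold change was 0.22 and for atpB1 0.25 (limma, adjusted p of 0.801 and 0.787). Sig5, singled out after its values were seen, had 29.1 and 15.5 FPKM in the control libraries and 4.94 and 8.65 in CysNO (log2 fold change -1.56 ± 0.39, SE; limma, adjusted p = 0.0765). The groups did not overlap there, nor for Sig1, Sig2A, Sig6 and atpB2, and they did not overlap at 46.4% of all tested loci. The log2 fold change was -0.57 for Sig1, -0.64 for Sig6, -0.24 for Sig2A and 0.40 for Sig2B.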

How the data were processed

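Each library has a table in which the authors deposited FPKM for every locus, per the file headers, beside its chromosome, start, end, strand and, for some loci, a symbol. Bowtie 0.12.2 and mm8 (a mouse build, which cannot be that of rice loci) stand in the submitters' processing notes. No source used here gives the rice build, the counting program or a filter. Read pairs were 100 bp, per the labels' protocols. A locus was tested if 2 or more of the 4 libraries had 1 FPKM or more. The test was limma (version 3.58.1, R version 4.3.3) on log2 of FPKM plus a pseudocount of 1 (mean-variance trend, two-sided, Benjamini-Hochberg over all 21123 tested loci, threshold 0.05). The fit has 2 residual and 5.36 prior degrees of freedom, and the script was tested on simulated data. Classes were set by symbol. The members and lists were chosen with earlier results of these data known. All 26 tested members are named. Gene names for loci without a symbol, and the comparison of spans, come from a RefSeq gene table of the rice assembly ASM3414082v1, matched on start and end within the organelle genomes. All coordinates are those of the files. Organelle tRNA and ribosomal RNA genes and the mitochondrial nad1 and nad5 were not analysed here. Alternatives were other scalings, pseudocounts and filters, a replicate block, and each library left out in turn.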

Additional observations from a re-analysis of the deposited data

How the results depend on the processing

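Read counts are unknown, so no member has a counting interval, and with 2 libraries a group a change of the size seen within a group cannot be told from the spread. Over all loci limma called 893 with all libraries, 449 with median centring, 480 with quantile normalization, 186 at an adjusted p under 0.01, 2 with no filter on low values, and from 0 to 1300 with a library left out (0 without CysNO 1 and 1 without CysNO 2). Leaving out a library leaves a lone sample that is assumed to vary like the other group. The replicate numbers of the titles gave 55 calls as a block. With the replicate block no chloroplast member passed (rps16, adjusted p = 0.05681) and the count of chloroplast members called was 0. The within-group differences correlated at -0.19 over 21123 loci between the same numbers, so the numbers are not taken to pair the libraries. The crossed pairing was added after seeing the data, because that correlation was negative, so more calls were built into it. It gave 2831 calls among 21123 tested loci, 1 among the 9 tested in the chloroplast and 3 among the 17 in the mitochondrion. These calls support no difference in any member. The chloroplast count of 1 was 0 with no filter, with only loci above 0 in every library (where rps16 is left out), and from 0 to 1 with a library left out. It was 1 under the other scalings, filters and pseudocount. With a library left out, the mitochondrial count was 0 each time. The median log2 fold change with a library left out ran from -0.80 to 0.71 in the chloroplast and from -0.65 to -0.079 in the mitochondrion. The difference in the chloroplast share of FPKM ran from -0.00316 to 0.00795 percentage points and that of the mitochondrion from -0.00732 to -0.000982. At 0.1 FPKM in 2 libraries 25 chloroplast and 28 mitochondrial loci were held, and at 5 FPKM 7 mitochondrial loci. The signs of these log2 fold changes reversed with a library left out, none of them called: orf100 (-1.35 to 0.58), psbM (-0.58 to 1.76), atpB (-0.80 to 0.44), rbcL (-1.02 to 0.96), psbH (-1.14 to 0.71), rps15a (-1.37 to 0.93) and rpl32 (-0.36 to 0.065) in the chloroplast, and orf25 (-0.65 to 0.0092), orf152a (-0.56 to 0.62), [CMS-BO] (-0.13 to 0.079), rpl2 (-0.90 to 0.25), rps19 (-0.40 to 0.91) and orf165 (-0.67 to 0.48) in the mitochondrion.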
